A study of Mus musculus with 3 samples.

Results

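The collagen gene family of the mouse is described here through the chromatin occupancy of LMX1B, the LIM homeodomain transcription factor of the dorsal limb. All protein-coding genes of the mm10 RefSeq annotation whose symbol has the form Col, a number, a, and a second number were taken, which gave 44 of 21775 genes. Occupancy was measured by chromatin immunoprecipitation and sequencing (ChIP-seq) in limb buds of C57BL/6 embryos at embryonic day 12.5, with fore- and hindlimbs pooled in 2 runs of 48 buds each. There are 2 ChIP samples with the same polyclonal antibody, BMO8, and 1 input of pooled wild-type and mutant chromatin, which is not analysed here. The series and the track name of the first ChIP give its limb buds as wild type, while the track of the second, called the validation ChIP here after its title, states no genotype. The first ChIP lists 1287 enriched intervals and the validation ChIP 4501. Each ChIP is a single sample, so no value below has replicate error and no difference between groups was tested. The labels do not say whether both ChIPs came from separate chromatin.

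Collagens are trimeric proteins of the extracellular matrix. Fibrillar collagens form the tensile fibres of skin, tendon, bone and cartilage, FACIT collagens (fibril-associated, with interrupted triple helices) sit on those fibres, and type IV chains build the sheet of basement membranes. Other members form microfibrils, short-chain networks or anchoring fibrils, or span the cell membrane. In the limb bud, mesenchyme under the control of patterning factors such as LMX1B later gives rise to cartilage, tendon and connective tissue, whose matrix is made largely of these proteins. In whole limb buds, signal from cells that contain LMX1B is averaged with that of cells that lack it.

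Each gene was given a domain, which runs from its body to the neighbouring protein-coding gene on either side and reaches at most 1 Mb from the body. An interval was counted for a gene when its midpoint fell in the domain, and a first-ChIP interval was called shared when it overlapped a validation interval by at least 1 bp. A domain is a bookkeeping unit and does not show which gene an interval acts on. The summit value is the whole number the authors deposited for the highest point of each interval. Its unit is not stated, so it is read only within its own list.

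The bases before the transcription start are shown for 3 genes, with each match to the short homeodomain site TAAT, on either strand, in capitals. Col1a2 and Col19a1 are shown because they held the shared intervals, and Col3a1 because its interval lay nearest to a start site. Each sequence is the 250 bases before the start, 5′ to 3′ on the gene's own strand, from RefSeq on GRCm38.p6, the assembly of mm10. For Col19a1 the start used lies inside the gene body, which reaches 24587922, so the stretch shown is also within the body.
Col1a2 (chr6:4505368-4505617, plus strand): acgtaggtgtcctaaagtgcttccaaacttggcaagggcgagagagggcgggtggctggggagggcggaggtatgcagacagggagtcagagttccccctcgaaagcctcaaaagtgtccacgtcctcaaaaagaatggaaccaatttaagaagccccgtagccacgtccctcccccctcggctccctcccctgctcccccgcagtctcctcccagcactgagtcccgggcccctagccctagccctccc
Col3a1 (chr1:45311288-45311537, plus strand): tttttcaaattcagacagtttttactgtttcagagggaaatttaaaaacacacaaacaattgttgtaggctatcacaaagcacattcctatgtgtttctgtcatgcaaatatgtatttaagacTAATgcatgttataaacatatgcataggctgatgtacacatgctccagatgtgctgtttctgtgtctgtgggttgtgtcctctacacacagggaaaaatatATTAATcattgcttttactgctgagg
Col19a1 (chr1:24587438-24587687, minus strand): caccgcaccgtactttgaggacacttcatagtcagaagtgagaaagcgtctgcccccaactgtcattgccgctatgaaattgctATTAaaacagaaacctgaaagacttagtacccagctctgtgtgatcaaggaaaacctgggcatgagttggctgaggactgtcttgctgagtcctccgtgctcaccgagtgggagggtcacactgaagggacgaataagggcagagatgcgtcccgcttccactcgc
The stretch before Col1a2 holds 0 matches, that before Col3a1 holds 3, of which 2 overlap, and that before Col19a1 holds 1. The GC content of the 3 stretches is 62.0%, 35.2% and 52.0% in the same order. No interval of either list overlapped the promoter window of any of the 35 collagen genes with such a window, 250 bases before to 50 after a start. The share of all 32851 windows that an interval overlapped is not given here. The count is therefore not read as a trait of collagen genes. The shared interval of Col1a2 lay 51.8 kb from its start site and those of Col19a1 276.6 and 277.0 kb from theirs.

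The longer homeodomain core TAATTA, which reads the same on both strands and contains TAAT, was found in 2 of 38 collagen windows (5.26%), those of Col10a1 and Col11a2. Over all 32851 windows of 300 bases in the table the share was 5.29%. Its extension TTAATTA was in 0 of 38 collagen windows and in 3.07% of all. The short site TAAT, on either strand, was in 13 of 38 (34.2%) against 58.0% of all. The collagen windows were richer in GC, with a median of 59.0% against 52.4%, and the part of this in the lower share of TAAT was not tested. No window match is a bound site, and the letters under the intervals themselves are not analysed here.

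Of the 44 collagen genes, 15 had an interval of either list in the domain and 29 had none. Over all protein-coding genes the share with an interval of either list was 16.7%. A shared interval lay in 2 collagen domains, those of Col1a2 and Col19a1 (4.55%), where 3.41% of all genes had one. A first-ChIP interval lay in 5 (11.4%) against 6.04% of all genes, and a validation interval in 13 (29.5%) against 15.1%. Collagen domains are long, with a median of 198 kb against 67.3 kb over all genes, and longer domains hold more intervals. When all genes were split into 5 equal groups by domain length, 20 collagen genes fell in the longest group, of 218 kb or more, and 13 in the next. The longest group is broad, reaching 3960 kb, and length within a group was not matched. The share of all genes occupied was taken from each group. A set spread over the groups like the collagen genes would have 2.84 genes with a shared interval. It would have 4.41 with a first-ChIP interval and 11.03 with a validation interval. The observed counts of 2, 5 and 13 lay within 2 genes of these. For an interval of either list the length-based count is 11.8, against 15 observed.

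**Figure D1:**
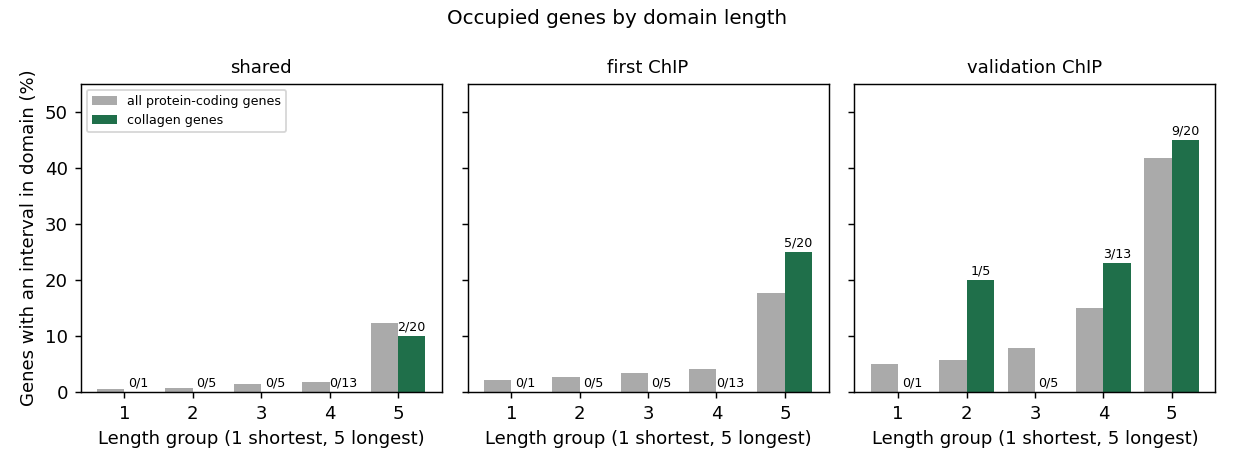
Percentage of genes with at least 1 interval in the domain, in 5 equal groups by domain length, for all protein-coding genes (grey) and collagen genes (green, with the count over the number of collagen genes); bars are shares with no error bar because each list is 1 sample. In the longest group 2 of 20 collagen genes had a shared interval, 5 of 20 a first-ChIP interval and 9 of 20 a validation interval, where all genes stood at 12.4%, 17.7% and 41.7%.

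Counted as intervals, the 44 domains cover 12.2 Mb and held 7 first-ChIP intervals, 3 of them shared, and 28 validation intervals. The density was 2.29 validation intervals per Mb, against 1.70 over the domains of all protein-coding genes, and 0.574 first-ChIP intervals per Mb against 0.485. At the overall density, 12.2 Mb would hold 20.8 validation and 5.92 first-ChIP intervals. These lie within the exact Poisson intervals (95%) of the observed counts, 18.6 to 40.5 for 28 and 2.81 to 14.4 for 7. The Poisson intervals cover counting error only and treat neighbouring intervals as independent. Col1a2 and Col25a1, with 6 and 5, held the most of the 28 validation intervals, and the other 42 genes held 17. In collagen domains 3 of 7 first-ChIP intervals were shared, against 707 of 1287 in the whole list. Of the validation intervals there, 26 of 28 were unshared, against 3800 of 4501 in the whole list.

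**Figure D2:**
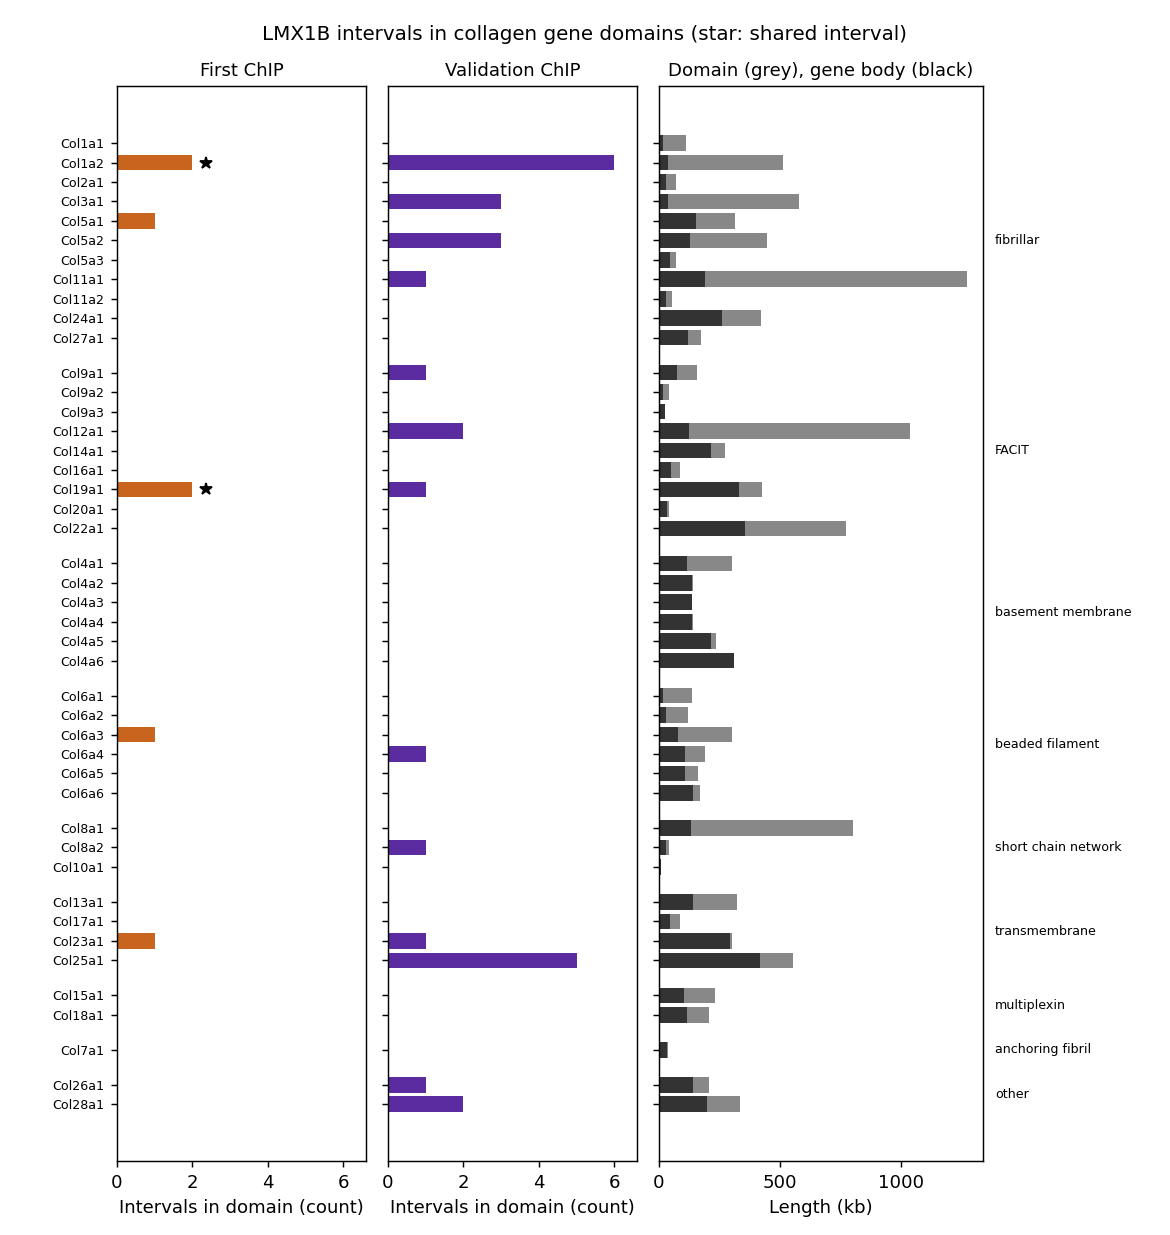
Number of first-ChIP (orange) and validation (purple) intervals in the domain of each of the 44 collagen genes, ordered by class, with the length in kb of the domain (grey) and the gene body (black); a star marks genes with a shared interval. Col1a2 has the most validation intervals, 6, followed by Col25a1 with 5, and all 6 basement membrane genes have 0 in both lists.

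Among the 11 fibrillar collagen genes, 5 had an interval: Col1a2, Col3a1, Col5a1, Col5a2 and Col11a1. All 5 are in the longest group of domains, where 43.6% of all genes had an interval of either list, against 16.4% in the next group. Here and for the classes below, counts of occupied genes were not adjusted for domain length. Of these, Col1a2 held the most, 2 first-ChIP and 6 validation intervals in a domain of 514 kb. It encodes the alpha 2 chain of type I collagen, the main fibre protein of bone and tendon. Of all protein-coding genes, 0.854% had at least 6 validation intervals, and of the 4355 in the longest group of domains, to which Col1a2 belongs, 4.20% did. The gene lies on chromosome 6 at 4505618 to 4541543, plus strand, between Bet1 and Casd1, and none of its intervals was in the gene body.

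Past the 3′ end of Col1a2, 5 intervals gathered within 4.96 kb, from 11.8 to 16.8 kb beyond the gene and 42.6 kb short of the domain end at Casd1. The shared interval there, at 4557078 to 4557681 in the first ChIP, had a summit value of 32, rank 88 of 1287 in its list. Its validation counterpart at 4556977 to 4557728 had 18, rank 414 of 4501, and covered the whole first-ChIP interval. The summits of this pair lay 48 bp apart. The next validation interval, at 4557737 to 4558307 with a value of 13, began after a gap of 8 bp.

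Near the shared pair, intervals of both lists lay close together without overlapping. A first-ChIP interval at 4553350 to 4553603 had a value of 12, the lowest in its list, and ended 338 bp before a validation interval at 4553942 to 4555010 with a value of 11. These do not overlap and so were not counted as shared. A further deposited list, Active Regions, holds 735 regions and includes this first-ChIP interval as well as the shared one. Its 4 regions in collagen domains are these 2 and the 2 in Col19a1.

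Upstream of Col1a2 the validation ChIP alone listed 3 intervals, 20.9, 48.0 and 80.3 kb before the start site. Their values were 10, 13 and 9. The farthest lay within the lncRNA genes Gm46948 and Gm33788 and the middle one within Gm46948. Upstream intervals were thus unshared, while the downstream group held the only shared interval of a fibrillar gene.

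**Figure D3:**
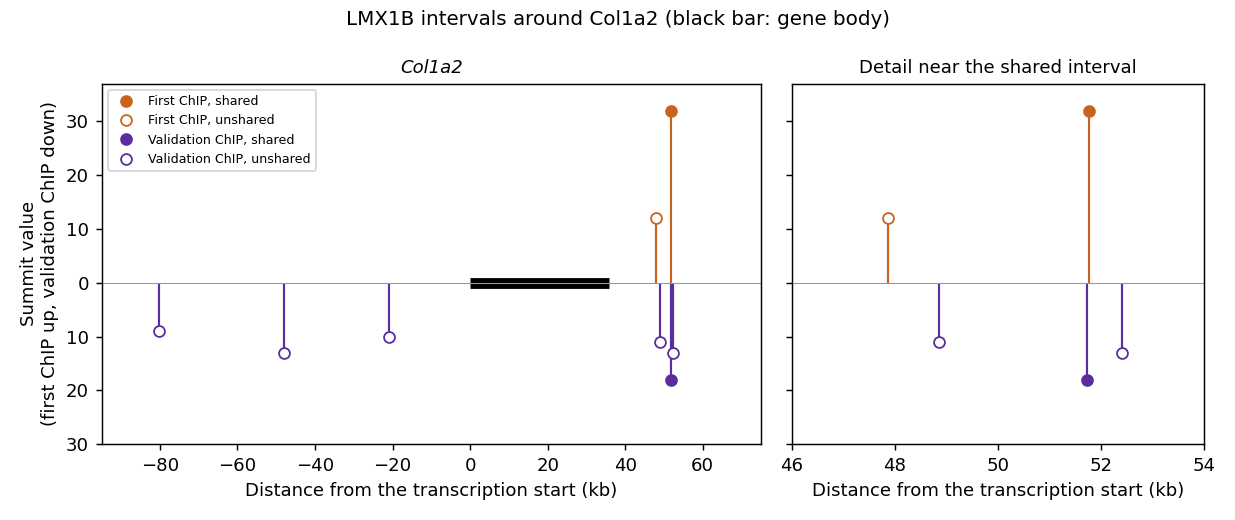
Summit values of intervals around Col1a2 against distance in kb from the transcription start, with first-ChIP values drawn upward and validation values downward on scales that cannot be compared between lists; the black bar is the gene body and the right panel enlarges 46 to 54 kb. Filled points are the shared pair, with values of 32 and 18, and open points are unshared intervals.

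Col3a1 and Col5a2, which encode chains of type III collagen and of type V, a regulator of fibril width, are neighbours on chromosome 1, 24.6 kb apart. Their joined domains of 998 kb held 6 validation intervals and 0 of the first ChIP. Col3a1 (45311538 to 45349706, plus strand) had an interval at 45312034 to 45312505, whose near edge is 496 bp after the start site. This was the collagen interval nearest to a start site, and its value of 8 was low in the list, where 1.22% of intervals had less. A close pair, separated by 451 bp and also with values of 8, lay 279 and 280 kb upstream. Both intervals of this pair lay nearer to Gulp1, the neighbouring gene on that side, than to Col3a1. Col5a2 had 1 interval in its body, 11.6 kb from the nearer gene end, with a value of 11. Its other intervals, with values of 10 and 9, lay 173 and 263 kb beyond the gene on the side of Wdr75. Both lay nearer to Wdr75 than to Col5a2. All 6 of these intervals had values at or below the list median of 11.

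Col5a1, the partner chain of Col5a2 in type V collagen, had the opposite record. Its single interval was in the first ChIP, within the gene body on chromosome 2 at 27932943 to 27933275, 46.7 kb from the start site, with a value of 19. The nearest validation interval was 864 kb away. Col11a1, a chain of the fibril-nucleating type XI collagen of cartilage, had 1 validation interval with a value of 11, 95.8 kb downstream of the gene in a domain of 1274 kb.

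The remaining fibrillar genes, Col1a1, Col2a1, Col5a3, Col11a2, Col24a1 and Col27a1, had none in their domains. Col1a1 encodes the partner of the Col1a2 chain in type I collagen and has a shorter domain, 113 kb. Its nearest validation interval was 48.4 kb away and its nearest shared one 2829 kb. For Col2a1, the main fibrillar collagen of cartilage, a validation interval lay 12.1 kb from the gene but beyond the border of its domain. Col11a2 had a shared interval at 52.5 kb, also outside its domain of 53.98 kb. Empty domains therefore do not show that no interval was near. As a class, the fibrillar genes held 13 validation intervals in 4.002 Mb (exact Poisson interval 6.92 to 22.2), where the overall density gives 6.81, just below that interval. Of the 13, 6 were those of Col1a2, of which 3 lay within the 4.96 kb group and are not independent. Without Col1a2 the class held 7 validation intervals, where the overall density gives 5.94.

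Of the 9 FACIT genes, Col9a1, Col12a1 and Col19a1 had an interval. Col19a1, a scarce FACIT collagen, lies on chromosome 1 at 24257683 to 24587922, minus strand. Its first-ChIP intervals, at 24310282 to 24310551 and 24310579 to 24311006, were 27 bp apart and had values of 17 and 20. Both lay inside 1 validation interval of 1354 bp at 24309883 to 24311236, whose value of 22 was rank 205 of 4501 and the highest of any collagen interval in that list. The first-ChIP intervals covered 19.9% and 31.6% of it, so under a rule of 50% reciprocal overlap neither was shared and Col1a2 remained the sole collagen gene with a shared interval. The site lay in the gene body, 52.7 to 53.1 kb from the 3′ end, and whether in an exon or an intron was not resolved.

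The neighbour of Col19a1 is Col9a1, a chain of the type IX collagen that coats cartilage fibrils. It had 1 validation interval in its body with a value of 13, 45.1 kb after a start site. The shared site in Col19a1 was 57.7 kb from the body of Col9a1 and 69.6 kb from this interval. Col12a1, a fibril-associated collagen of tendon and dense connective tissue, had validation intervals with values of 11 and 13, but these were 570 and 754 kb from the gene in a domain of 1039 kb. The farther is the most distant of all collagen intervals. Both lay nearer to Cd109, the neighbouring gene on that side, than to Col12a1. Col9a2, Col9a3, Col14a1, Col16a1, Col20a1 and Col22a1 had none. Col22a1 had none in a domain of 773 kb. The class held 4 validation intervals in 2.86 Mb (exact Poisson interval 1.09 to 10.2), against 4.86 at the overall density.

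The 6 basement membrane genes, Col4a1 to Col4a6, had no interval of either list in 1.27 Mb of domain. At the overall density this length would hold 2.16 validation and 0.617 first-ChIP intervals, and the upper exact Poisson limit for a count of 0 is 3.69. A shortfall was therefore not detectable. These genes lie as head-to-head pairs, in which both members border each other and cut each other's domain. Around Col4a1 and Col4a2, the widely made pair, the nearest first-ChIP interval was 47.9 kb from Col4a2 and the nearest validation interval 109 kb from it. Around Col4a5 and Col4a6 on chromosome X the nearest validation interval was 15813 kb from Col4a5, and the nearest first-ChIP interval 39525 kb from Col4a6.

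Of the 6 beaded filament genes, whose products form the type VI microfibrils around cells, Col6a3 and Col6a4 had 1 interval each. Col6a3 had a first-ChIP interval on chromosome 1 at 90775915 to 90776297, in the body 9.25 kb from the 3′ end, with a value of 23. This was the next-highest value among collagen intervals of the first ChIP, after the shared one of Col1a2, and it was unshared: the nearest validation interval was 279 kb away. Col6a4 had a validation interval 43.1 kb upstream with a value of 12, which lay nearer to the neighbouring gene Glyctk than to Col6a4. Col6a1, Col6a2, Col6a5 and Col6a6 had none. The class held 1 first-ChIP and 1 validation interval in 0.938 Mb, where the overall density gives 0.455 and 1.597.

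Among the 4 transmembrane collagen genes, Col25a1 and Col23a1 were occupied. Col25a1, a collagen known from nerve and muscle contacts, had 5 validation intervals and none of the first ChIP. At least 5 validation intervals were found in 1.18% of all genes and in 5.79% of those in its group of domain length, the longest. Their values were 12, 11, 9, 11 and 12, in order along the plus strand. The first lay 19.2 kb before the start site and the others in the body, 123, 129, 292 and 343 kb after it. These values lie around the list median of 11, and none overlapped a first-ChIP interval, of which the nearest was 205 kb away. Col23a1 had 1 interval from each list in its body, 108 kb apart: a first-ChIP interval with a value of 17 and a validation interval with 11. It was therefore occupied in both lists at different sites. Col13a1 and Col17a1, a hemidesmosome collagen of skin epithelium, had none. The class held 6 validation intervals (exact Poisson interval 2.20 to 13.1), where the overall density gives 2.16, just below that interval. Of the 6, 5 were those of Col25a1, and without it the class held 1, where the overall density gives 1.21. The classes were not tested against each other, and the Poisson intervals were not adjusted for the number of classes.

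**Figure D4:**
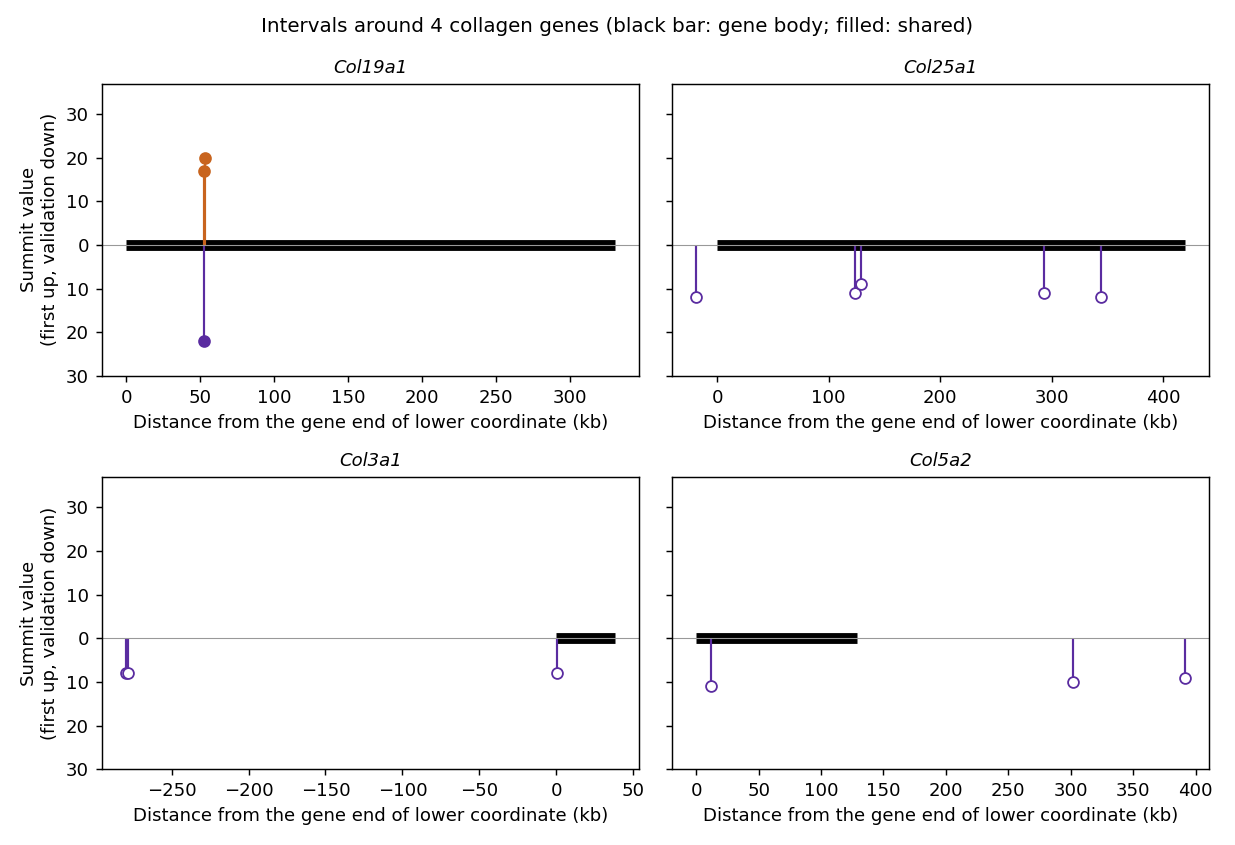
Summit values of intervals around Col19a1, Col25a1, Col3a1 and Col5a2 against distance in kb from the gene end of lower coordinate, with first-ChIP values upward and validation values downward; the black bar is the gene body and filled points are shared intervals. Of these, only Col19a1 has points above the line, with values of 17 and 20, over a validation value of 22, while the other 3 genes have validation values of 8 to 12.

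Of the short-chain network genes, Col8a2 had a validation interval in its body with a value of 13, 4.22 kb from the 3′ end. Col8a1, a vessel and eye collagen, had none in 802 kb, and Col10a1, the marker of hypertrophic cartilage, none in 7.11 kb. The body of Col10a1 lies within that of Nt5dc1, so its domain is the gene itself. The multiplexin genes Col15a1 and Col18a1, which encode collagens of the basement membrane zone, and Col7a1, the anchoring fibril of skin, had none. Of the 2 genes outside these classes, Col26a1 had a validation interval on chromosome 5 at 136738450 to 136739070, 2.999 kb outside a gene end, with a value of 17. This was the highest value among unshared collagen intervals of the validation ChIP, at rank 498. Col28a1 had 2 in its body, with values of 12 and 10. These 3 validation intervals (exact Poisson interval 0.619 to 8.77) compare with 0.925 at the overall density.

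The summit values of collagen intervals lay around the middle of their lists. In the first ChIP the 7 values ran from 12 to 32 with a median of 19, where the whole list ran from 12 to 86 with a median of 20. In the validation ChIP the 28 values ran from 8 to 22 with a median of 11, equal to the list median, and the list reached 55. Shared intervals held the top value of each set, 32 at Col1a2 and 22 at Col19a1. The widths had medians of 333 bp and 603.5 bp, against 389 and 571 bp in the lists. Of the first-ChIP intervals 5 of 7 (71.4%) lay in collagen bodies and of the validation intervals 12 of 28 (42.9%). Bodies make up 44.0% of the summed domain length. Of the 5 first-ChIP intervals in bodies, 2 are the Col19a1 pair, 27 bp apart. The share of all listed intervals that lie in gene bodies is not given here. By gene, 3 collagen genes (Col1a2, Col19a1 and Col23a1) were occupied in both, 2 (Col5a1 and Col6a3) in the first ChIP alone and 10 in the validation ChIP alone. Over all 21775 genes, 1315 had a first-ChIP interval, 3284 a validation interval and 3642 an interval of either list. Genes occupied in the validation ChIP alone were thus the largest group there too.

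**Figure D5:**
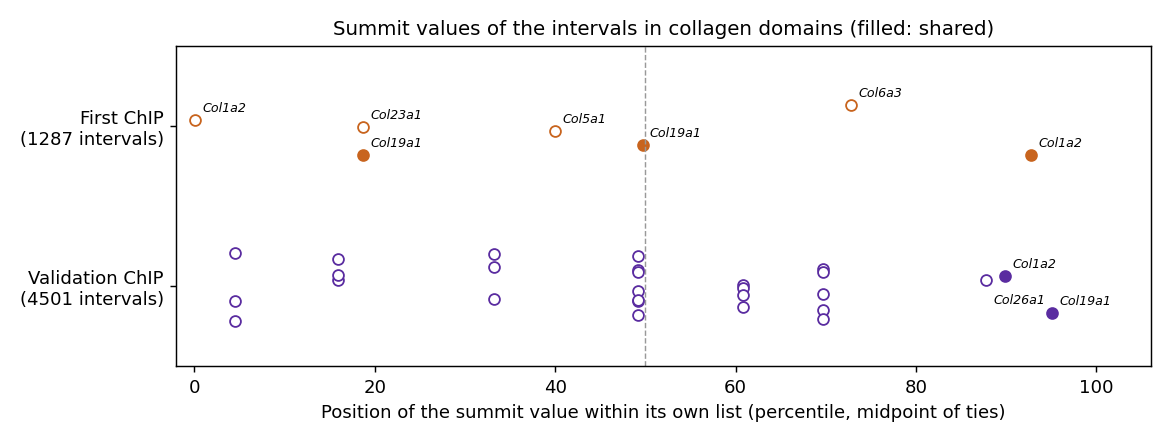
Position of each collagen interval's summit value within its own list, as a percentile, for the 7 first-ChIP (orange) and 28 validation intervals (purple); filled points are shared, vertical scatter is for legibility and the dashed line is the list's middle. Collagen values ran from 12 to 32 in the first list, which reaches 86, and from 8 to 22 in the validation list, which reaches 55. By percentile the shared intervals of Col1a2 and the shared validation interval of Col19a1 lie near the top.

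Genes for the making and sensing of collagen were counted in the same way. Of 43 such genes, 1 had a shared interval, 2 a first-ChIP interval and 11 a validation interval, where their domain lengths give 1.57, 2.72 and 7.22. The shared interval was that of Lox, which encodes lysyl oxidase, the enzyme that cross-links collagen fibres. It lay 83.2 kb from the gene with values of 25 in the first ChIP and 19 in the validation ChIP, and a second validation interval, with a value of 8, lay 85.4 kb away. The other 4 cross-linking genes, Loxl1 to Loxl4, had none. For the 5 cross-linking genes, domain lengths give 0.082, 0.184 and 0.651 genes with a shared, first-ChIP and validation interval, against 1 each. The 1 in each is Lox.

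Of 8 genes for propeptide processing, 4 had a validation interval and 1 a first-ChIP interval, where their domain lengths give 1.83 and 0.710. Bmp1, which encodes the procollagen C-proteinase, had a first-ChIP interval whose midpoint was 0.003 kb outside a gene end, on chromosome 14 at 70474362 to 70474742, with a value of 18. Tll1, its relative, had 3 validation intervals, among them one with a value of 26 at 10.5 kb, above every collagen interval in that list. Adamts2, Adamts3 and Pcolce had 1 validation interval each, 125, 61.8 and 3.85 kb from the gene. Of 16 genes for prolyl and lysyl modification 3 had a validation interval, P3h2, P4ha2 and Plod2, where domain length gives 1.89. Of 5 for chaperoning and export 1 had one, against 0.854: Sec23a, whose interval was 0.155 kb outside a gene end. Among 9 collagen receptor genes, 2, the integrin genes Itga1 and Itga11, had validation intervals, and domain length gives 1.99. Itga11, a receptor of mesenchymal cells for fibrillar collagen, had 3, with values of 12, 8 and 12.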

How the data were processed

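Per the labels' protocols, tissue was fixed with 1% formaldehyde for 15 min, chromatin was sheared to 300 to 500 bp, and 30 µg was precipitated with 20 µl of antibody. Per the submitters' processing notes, BWA and build mm10 were used; the caller, its threshold and any input correction were not given in the sources used here. The authors deposited, for each ChIP, intervals and a summit score (the summit value) without stated unit, so the depth is unknown. The validation ChIP's file repeats all 1287 first-ChIP intervals, identical but for 1 moved summit; these were used. Coordinates count from 1.

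Gene bodies were taken from RefSeq's GRCm38.p6 gene table, without the 340 entries on autosomes and X that start before 3 Mb; it gives no exons. Strand and start sites came from RefSeq promoter windows, found for 35 of 44 genes, so for the others "outside" a gene is given without upstream or downstream. Classes and pathway lists were written by hand. The members and lists were chosen with earlier results of these data known. Named were all members with an interval, all members without one by class, and pathway genes with one. Length-based counts sum the occupied share over the 5 groups of domain length. Counts and Poisson intervals were computed with Python 3.11.15, pandas 2.3.3 and scipy 1.17.1; counting functions were tested on simulated data. No test was made. Alternatives changed the overlap rule, the threshold, the domain and the assignment.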

Additional observations from a re-analysis of the deposited data

How the results depend on the processing

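Counts stayed within 1.5-fold of those reported when intervals were assigned by any overlap with the domain, to the nearest gene body, or within 100 kb of the gene. With the nearest gene body, 11 collagen genes had a validation interval and 21 validation intervals remained. Those of Col6a4 and Col12a1, the pair upstream of Col3a1 and the outer Col5a2 intervals went to other genes. With gene bodies alone, 1 collagen gene had a shared interval, since that of Col1a2 lies outside its body, 8 genes had a validation interval, and 12 validation intervals remained. Under 50% reciprocal overlap, 1 gene and 1 interval were shared. With intervals at or above the median summit value of their list, 3 genes and 3 intervals of the first ChIP remained, fewer by construction, and the median collagen value was 23 in the first ChIP and 12 in the validation ChIP. Within 100 kb of the gene the validation median was 11.5. The pathway counts stayed within 1.5-fold under both alternatives tried. No paired analysis was possible because each group has 1 sample, and for the same reason no replicate could be left out. Interval lists carry no read counts, so weak sites below the authors' threshold cannot be seen.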
